A study of Danio rerio with 8 samples.

Results

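Solute carriers are membrane proteins that move a small molecule, such as an amino acid, a sugar, a metal ion or a nucleotide, across the cell surface or an organelle membrane. The transcripts described here are those of all zebrafish genes whose symbol in the platform annotation begins with slc and a family number, with a signal of 41 or more on at least 2 of 8 arrays. Of 113 such genes on the array 65 met this rule, out of 5219 named genes that met the same signal threshold. Each gene is represented by its brightest probe set, a group of short probes for 1 transcript. Total RNA of whole zebrafish embryos, 120 per sample, was hybridised to Affymetrix arrays in 4 groups of 2 biological replicates. Wild type (WT) embryos were AB x TÜB crosses. MZspg embryos, which lack maternal and zygotic function of spg, the locus of the transcription factor Pou5f3, carried the m793 allele, and the labels name no other genetic background for them. Each genotype was sampled 4.7 hours post fertilisation at 30% epiboly and 7 hours post fertilisation at 60% epiboly, stages named for the share of the yolk that the spreading cell layers cover. For all groups the labels allow either of a pair of staging routes, timed in vitro fertilisation or natural mating with staging at 4 cells, without tying a route to a sample.

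Solute carriers are grouped into numbered families by sequence, and the family number usually tells the kind of cargo. In the SLC7 family, for example, some members carry cationic amino acids alone and others are light chains that pair with an SLC3 heavy chain to exchange amino acids, SLC38 members take up or release glutamine and other neutral amino acids, and SLC25 members are the carriers of the inner mitochondrial membrane. The early zebrafish embryo lives on its yolk, and a syncytial layer at the yolk surface passes nutrients to the cells above it. Pou5f3, related to mammalian Oct4, is among the factors that switch on zygotic transcription. The comparisons ask which transporter transcripts differ when Pou5f3 is missing from egg and embryo, and which change between the stages.

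The 65 transcripts covered most transport classes. By family number, 14 were mitochondrial carriers, 11 amino acid transporters and 8 zinc transporters. Exchangers of bicarbonate, chloride and protons, nucleotide-sugar and sugar-phosphate transporters, and carriers of peptides, urea or fatty acids had 5 members each. One member, slc7a6os, is named for its position on the strand opposite slc7a6 and is not a carrier. The highest mean signals over the 8 arrays were those of the mitochondrial phosphate carrier slc25a3b (1842), the lactate exporter slc16a3b (886.6), the sugar-phosphate exchanger slc37a2 (612.2), the aspartate-glutamate carrier slc25a12 (585.4) and the zinc transporter of the secretory pathway slc39a7 (490.1). The median of the mean signals was 134.6, against 139.8 over all 7375 tested probe sets. Signals of different probe sets are not on a common scale of abundance, so this order is one of brightness only.

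The signal threshold bears on the lower end of the list. The member closest to it was the slc35 family gene slc35a4, whose second highest signal was 41.1, and the nearest gene left out was slc35b4, another member of that family, at 40.9. In 44 of the 65 genes an array of every group reached the threshold, and in 37 all 8 arrays did. In 6 genes arrays of a single group alone reached it: slc15a4 in WT at 30% epiboly, and slc26a1, slc27a2a, slc3a2a, slc43a2b and slc4a2a in MZspg at 60% epiboly. In 9 more, arrays of 2 groups alone did so. These were slc14a2 in WT, slc24a4a, slc26a5 and slc46a1 at 30% epiboly, and slc16a9b, slc34a2b, slc35a4, slc38a2 and slc39a5 at 60% epiboly. All these genes entered the list through the groups in which they were high. The 48 genes under the threshold are not described further.

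**Figure D1:**
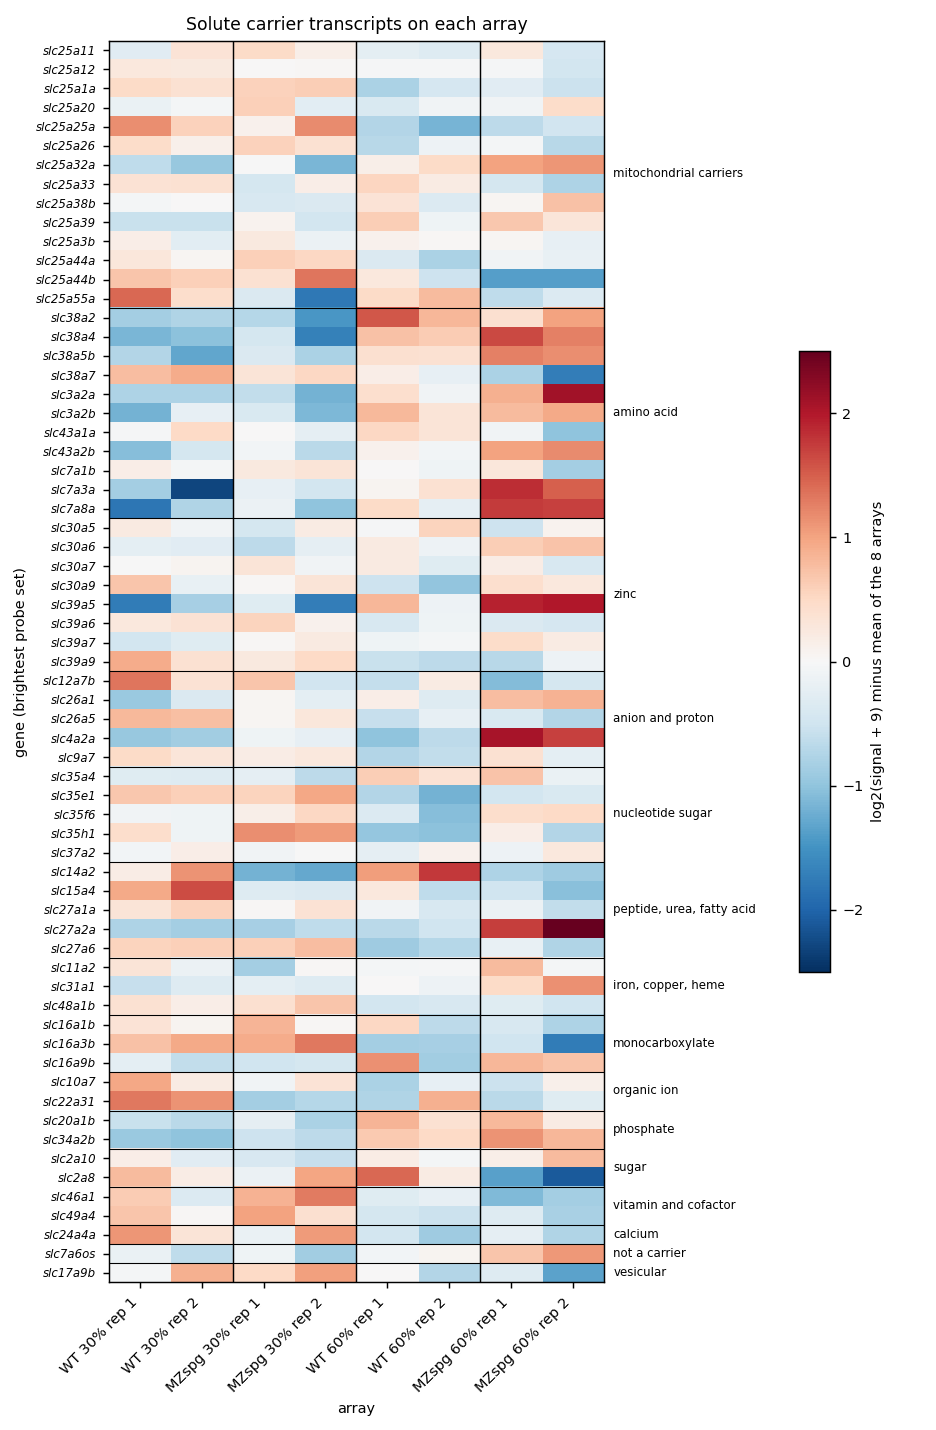
Level of each of the 65 solute carrier transcripts (rows, grouped by transport class) on each of the 8 arrays (columns), as log2(signal + 9) minus the mean of the gene over all arrays, with the colours ending at 2.5 in either direction. Red is above and blue below the mean, vertical lines part the 4 groups, and empty cells are drawn at the filled value of 8.35. The block of amino acid transporters is mostly blue at 30% and red at 60% epiboly, with slc38a7 running the other way.

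Replicate arrays correlated at 0.933 to 0.951 (Pearson's r across the 65 members, which are not independent). The transcript of pou5f3 was lower on all MZspg arrays, with log2 fold changes of -1.19 (limma adjusted p = 0.0223) at 30% and -1.26 (adjusted p = 0.0108) at 60% epiboly. Where its probe set lies with respect to the m793 change is not given in the sources used here, which limits it as a check of genotype. Hybridisation spike-ins stood apart on replicate 2 of both 60% groups, with geometric means of 592 and 736, against 78.8 to 190 on the other 6 arrays. These 2 arrays also had the most empty cells (22.4% and 20.2%, against at most 18.2%). They hold 1 array of each genotype, so genotype can be compared within them, but not stage.

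At 60% epiboly 2 transporter transcripts were higher and 2 were lower in MZspg than in WT. The anion exchanger slc4a2a, which trades chloride for bicarbonate, and slc27a2a, of the fatty acid transport and acyl-CoA synthetase family, rose. The urea transporter slc14a2 and the facilitative hexose transporter slc2a8 fell. These 4 of 65 members (6.15%) compare with 4.52% of all tested probe sets called at this stage, a call being an adjusted p under 0.05 by limma over all tested probe sets. In each direction the members' 3.08% stood beside 2.28% (higher) and 2.24% (lower) of all. Both rising genes met the signal threshold through MZspg at 60% epiboly alone, and slc14a2 through WT arrays alone. These genes were thus listed because of the groups in which they were high, and the counts are description only. The labels give whole embryos, so fewer cells of a type and less RNA per cell cannot be told apart in any of these values.

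WT arrays of 60% epiboly read 8.97 and 14.1 for slc4a2a, and MZspg arrays 142 and 110. The earlier arrays read 9.81 and 10.9 in WT and 24.7 and 22.3 in MZspg. The MZspg arrays were thus above the WT arrays at both stages, and far above them at 60%. The log2 fold change was 2.72 (SE 0.343, adjusted p = 0.00154) at 60% and 0.75 (adjusted p = 0.533) at 30% epiboly. Signals of slc27a2a lay between 5.33 and 9.41 on all 6 arrays of the other groups and were 76.6 and 141 in MZspg at 60%. Its log2 fold change was 2.71 (SE 0.367, adjusted p = 0.00206) at 60% and 0.07 (adjusted p = 0.997) at 30% epiboly. In these 2 genes the WT signals lay under 24.6, the level below which 95% of the signals fell whose replicate cell was empty, and over the other settings and left-out arrays the rise ranged from 1.66 to 3.36 for slc4a2a and from 1.57 to 3.51 for slc27a2a. With 1 array left out, the log2 fold changes were 2.54 to 2.90 for slc4a2a and 2.31 to 3.12 for slc27a2a. Both genes met the signal threshold through MZspg at 60% epiboly alone.

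The hexose transporter slc2a8 had signals of 180 and 71.4 in WT and 18.1 and 7.23 in MZspg at 60% epiboly. At 30% epiboly its groups overlapped, at 111 and 70.7 in WT and 53.5 and 130 in MZspg. The log2 fold change was -2.55 (SE 0.518, adjusted p = 0.0179) at 60% and -0.07 at 30% epiboly. Both MZspg signals at 60% were under 24.6, and the difference ranged from -3.19 to -1.56 over the other settings and left-out arrays. The urea transporter slc14a2 was lower in MZspg at both stages, and met the signal threshold through WT arrays alone. Its signals were 24.4 and 55.3 in WT and 4.07 and 3.22 in MZspg at 30%, and 52.1 and 91.5 in WT at 60%, where 1 MZspg cell was empty and the other read 7.07. It was the single member called at 30% epiboly (log2 fold change -1.88, SE 0.407, adjusted p = 0.0427) and was called at 60% as well (-2.23, SE 0.407, adjusted p = 0.0114). All its MZspg signals and 1 WT signal at 30% were under 24.6, and over the other settings and left-out arrays the difference ranged from -3.03 to -0.83 at 30% and from -3.01 to -1.19 at 60%. Among 60% calls, slc2a8 no longer passed when either WT replicate 1 or MZspg replicate 2 from 60% epiboly was dropped (adjusted p up to 0.152), nor slc14a2 when WT replicate 2 or MZspg replicate 2 was (up to 0.0727). At 30% epiboly slc14a2 passed in only 2 of 8 such fits (adjusted p up to 0.452). All 4 members differed in the same direction between the 2 arrays of low and the 2 of high spike-in signal at 60% epiboly: by 3.07 and 2.37 (log2) for slc4a2a, 2.40 and 3.03 for slc27a2a, -2.80 and -2.31 for slc2a8, and -1.82 and -2.64 for slc14a2.

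**Figure D2:**
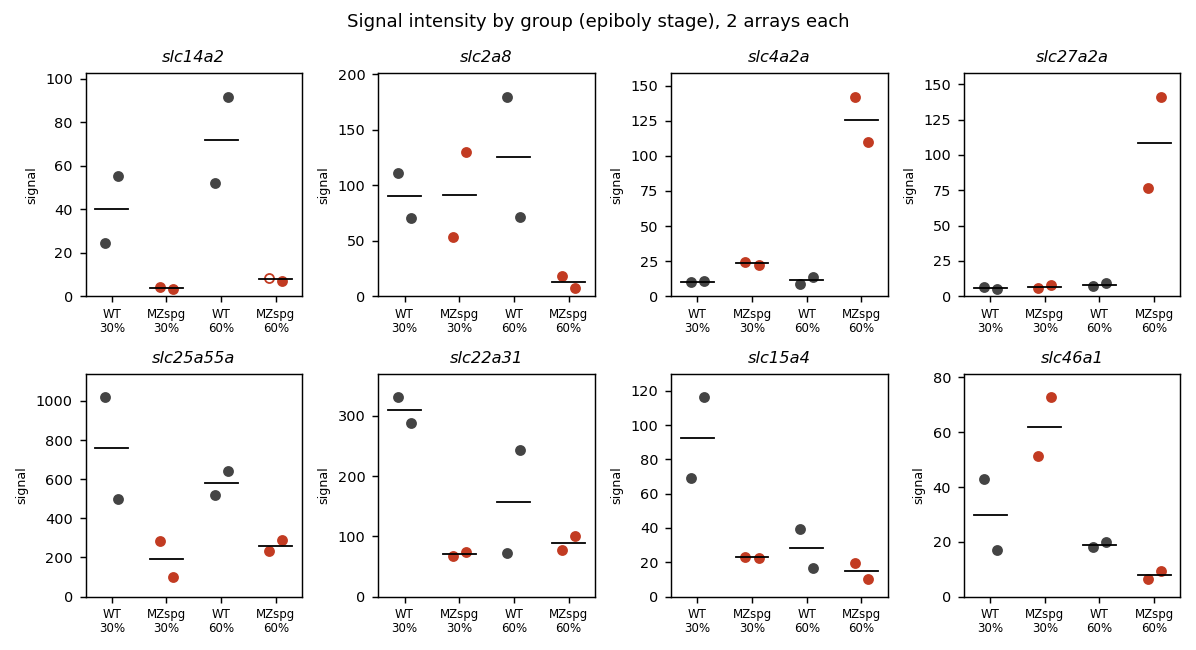
Signal intensity (linear axis from 0) of 8 solute carrier transcripts on each array: the 4 that were called between genotypes, 3 that were lowest in MZspg at 30% epiboly without a call, and slc46a1, whose groups differed in opposite directions at the stages. Grey points are WT and red points MZspg, open points are empty cells drawn at the filled value, and bars are means of 2 arrays. In slc4a2a and slc27a2a the MZspg arrays of 60% epiboly stand above all others, at 76.6 or more.

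Markers of other cell layers moved between the genotypes at 60% epiboly too, and are given here as measured. Of 12 tested genes expressed in the yolk syncytial layer 2 rose (apobb.1 and fabp1b.1) and 0 fell, with a median log2 fold change of 1.05. The summed signal of the 12 was 10061 to 11370 in WT and 10636 to 15472 in MZspg. The brightest genes, ctsla (4072 to 4676 over the arrays of this stage) and apoeb (2403 to 3353), weigh most in that linear sum. In MZspg the 2 that rose were higher on replicate 2 of this stage (67.0 and 371 for apobb.1, 85.8 and 688 for fabp1b.1). The layer's regulators mxtx2, gata6 and hnf4a had differences of -0.48, -0.08 and 0.90, none called. No marker of that list was empty on an array of 60% epiboly. Of 11 tested markers of the outer, enveloping layer 1 rose (cldnf) and 1 fell (pkp3a), and the summed signal of the 13 on the array was 11562 to 14111 in WT and 8127 to 9995 in MZspg. Of 5 germ cell markers nanos3 fell and 0 rose, and their summed signal was 991 to 1098 in WT and 415 to 582 in MZspg. The part of these layers in the transporter values was not tested.

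At 30% epiboly slc14a2, described above, was the 1 member of 65 that fell (1.54%, against 1.27% of all tested probe sets called lower and 1.68% called in either direction), and 0 rose. The slc14a2 call passed in 6 of the 11 other settings that tested it. Among the settings that lost it were a pseudocount of 41, no filter, empty cells left missing and arrays of 30% epiboly only. An unadjusted p under 0.05 was reached by 7 of the 65 members and by 690 of the 7375 tested probe sets. Next to slc14a2 stood 3 members with large negative differences and no call. The mitochondrial carrier slc25a55a read 1018 and 501 in WT and 286 and 99.99 in MZspg (-2.01, SE 0.466, adjusted p = 0.058). The organic ion family member slc22a31 read 331 and 288 in WT and 66.5 and 74.5 in MZspg (-2.00, SE 0.475, adjusted p = 0.0662). The lysosomal peptide and histidine transporter slc15a4 read 69.1 and 116 in WT and 23.3 and 22.3 in MZspg (-1.64, SE 0.419, adjusted p = 0.0928). The WT and MZspg arrays did not overlap in any of the 3, which were picked for their low differences. Of all tested probe sets 16.8% lay lower in MZspg without overlap. With the spike-in arrays as a term of the model, slc25a55a (limma adjusted p = 0.0487), slc22a31 (0.0179) and slc15a4 (0.0398) passed. That term left the 3 differences unchanged and altered only the estimate of spread. Each gene missed the threshold in most settings run, and slc15a4 passed with this term alone. With 1 array left out, the differences were -2.73 to -1.29 for slc25a55a, -2.10 to -1.91 for slc22a31 and -1.98 to -1.30 for slc15a4. Among the 3, slc15a4 met the signal threshold through WT at 30% epiboly alone. The chloride cotransporter slc12a7b came after them (-0.75, adjusted p = 0.796). At 60% epiboly the differences of slc25a55a, slc22a31 and slc15a4 were -1.13, -0.55 and -0.59, none called, and the arrays of slc22a31 overlapped there (72.0 and 243 in WT, 77.1 and 101 in MZspg). At the other end of the range stood the cationic amino acid transporter slc7a3a (1.24, adjusted p = 0.328), slc35h1 (0.95), the proton-coupled folate transporter slc46a1 (0.93), slc4a2a (0.75) and the amino acid exchanger light chain slc7a8a (0.71), none of them called. Markers of the enveloping layer differed at this stage too: 3 of 11 tested fell and 0 rose, with summed signals over the 13 on the array of 6637 to 8769 in WT and 2959 to 6632 in MZspg, and their part in the transporter values was not tested.

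The genotype difference was small in most members. Its median was 0.07 (log2) at 30% and 0.20 at 60% epiboly, where all tested probe sets had medians of 0.05 and 0.01. The median size regardless of sign was 0.28 and 0.49, against 0.26 and 0.44 over all. At 30% epiboly the 2 WT and 2 MZspg arrays did not overlap in 25 members (38.5%, with 38.5% of all tested probe sets), 14 higher and 11 lower (21.7% and 16.8% of all), and at 60% in 32 (49.2%, with 51.8% of all). At 60% epiboly 24 members lay higher and 8 lower in MZspg without overlap (28.7% and 23.1% of all tested probe sets did so). In 8 members the MZspg arrays lay above the WT arrays at both stages: slc25a44a, slc26a1, slc34a2b, slc35f6, slc35h1, slc39a7, slc4a2a and slc7a3a, where 9.41% of all tested probe sets did so. For slc39a7 and slc35f6 a dimmer probe set differed the other way at 60% (-1.01 and -0.18). In 4 they lay below at both: slc14a2, slc25a33, slc25a55a and the lysosomal glutamine exporter slc38a7 (8.35% of all). A dimmer probe set of slc38a7 differed the other way at 30% (0.29), and its arrays overlapped at 60% (-0.46). Over the 65 members the genotype differences of the 2 stages, which share no arrays, correlated at 0.50 (Pearson's r, a description over genes of the same arrays).

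**Figure D3:**
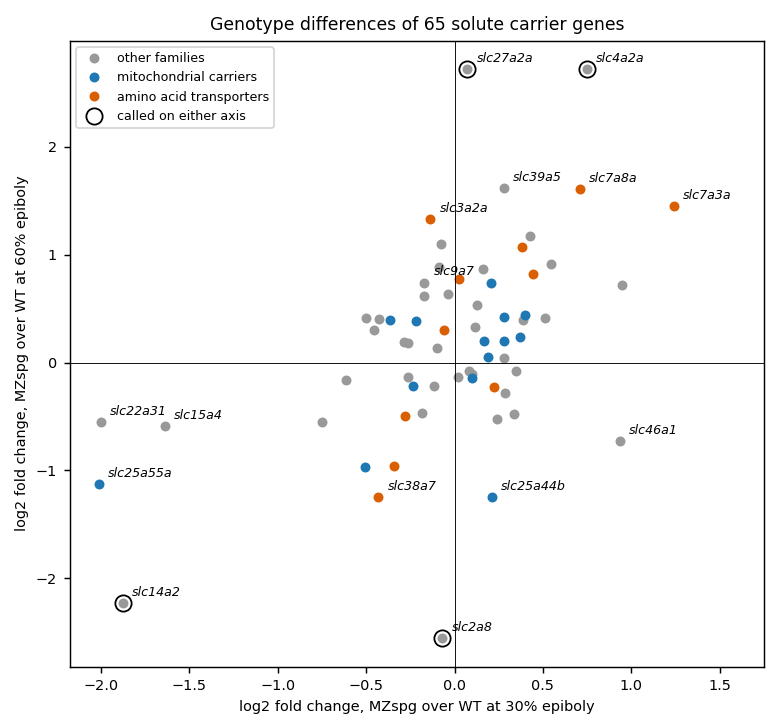
Log2 fold change of MZspg over WT at 30% epiboly (horizontal axis) and at 60% epiboly (vertical axis) for the 65 members, each from 2 arrays per group, with rings around the 4 members called at either stage. Most points lie within 1 log2 unit of 0 on both axes, slc14a2 is low on both, and slc2a8, slc4a2a and slc27a2a lie far from 0 on the vertical axis and within 1 unit of it on the horizontal one.

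Whether genotype acted differently at the stages was tested as an interaction, and 0 of 65 members passed by limma, as did 0 of 7375 probe sets. An unadjusted p under 0.05 was reached by 6 members and 638 probe sets. The smallest adjusted p of a member was that of slc27a2a (interaction 2.64 on the log2 scale, adjusted p = 0.237), which alone passed in 1 of 8 fits that left an array out, the one lacking MZspg replicate 1 of 60% epiboly (3.05, adjusted p = 0.0306). For slc2a8 the interaction was -2.48 (adjusted p = 0.456) and for slc4a2a 1.97 (0.363). In 2 members the genotypes were apart in opposite directions at the stages, a count given without its share over all probe sets. Of all tested probe sets 38.5% did not overlap at 30% and 51.8% at 60% epiboly, in either direction. The folate transporter slc46a1 read 42.8 and 17.1 in WT and 51.3 and 72.7 in MZspg at 30%, and 18.01 and 19.9 in WT and 6.46 and 9.48 in MZspg at 60% (interaction -1.66, adjusted p = 0.521). The organellar sodium-proton exchanger slc9a7 read 86.1 and 75.2 in WT and 68.6 and 72.5 in MZspg at 30%, and 31.9 and 35.3 in WT and 79.1 and 48.5 in MZspg at 60% (0.91, adjusted p = 0.678).

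Amino acid transporters were the class with the most calls between stages. From 30% to 60% epiboly 4 of the 11 rose and 0 fell in WT, and 8 rose and 1 fell in MZspg. Of all tested probe sets 5.6% rose and 8.14% fell in WT, and 13.8% rose and 18.8% fell in MZspg. The class median of the log2 stage change was 1.26 in WT and 1.78 in MZspg, where all tested probe sets had medians of -0.07 and -0.11. In WT the glutamine-type transporters slc38a2, slc38a4 and slc38a5b and the cationic amino acid transporter slc7a3a rose. In MZspg these 4 rose as well, with slc7a8a, both heavy chain genes slc3a2a and slc3a2b, and the large neutral amino acid transporter slc43a2b. Among the rising genes slc38a2 met the signal threshold through 60% arrays alone, and slc3a2a and slc43a2b through MZspg at 60% epiboly alone. Their rises are therefore part of why they were listed, and the class counts include them.

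The signal of slc38a2 was 22.9 and 25.3 at 30% and 160 and 93.7 at 60% in WT, and 26.5 and 11.99 in MZspg at 30% and 66.9 and 107 at 60%. Every 60% array lay above every 30% array, and the gene met the signal threshold through 60% arrays alone. The log2 stage change was 1.99 (SE 0.414, adjusted p = 0.0149) in WT and 1.78 (adjusted p = 0.00862) in MZspg. The signal of slc38a4 went from 39.4 and 43.2 to 168 and 158 in WT and from 69.6 and 24.2 to 327 and 248 in MZspg (1.77, adjusted p = 0.023, and 2.52, adjusted p = 0.00208). That of slc38a5b went from 67.4 and 42.4 to 159 and 156 in WT and from 90.3 and 64.2 to 294 and 275 in MZspg (1.41, adjusted p = 0.0267, and 1.78, adjusted p = 0.00431). In these 2 genes the MZspg arrays of 60% epiboly were the highest of the 8. For slc7a3a the signals were 58.5 and 15.9, then 118 and 149 in WT, and 96.7 and 79.6, then 430 and 332 in MZspg (1.79, adjusted p = 0.027, and 2.00, adjusted p = 0.00759).

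The light chain slc7a8a and its heavy chain partners had their highest mean in MZspg at 60% epiboly. Signals of slc7a8a were 57.3 and 128 in WT and 201 and 107 in MZspg at 30%, and 312 and 189 in WT and 771 and 753 in MZspg at 60%. Its stage change was called in MZspg (2.31, adjusted p = 0.00348) and missed the threshold in WT (1.40, adjusted p = 0.0533). The genotype difference at 60% was 1.61 (SE 0.437, adjusted p = 0.06). A dimmer probe set of slc7a8a read 272 and 172 in WT and 226 and 179 in MZspg at 60%, a genotype difference of -0.10, so the probe sets of this gene disagree. The heavy chain slc3a2a was empty on both WT arrays of 30% epiboly and read 10.3 and 3.91 in MZspg there, then 30.3 and 18.7 in WT and 45.8 and 117 in MZspg at 60% (stage change in MZspg 2.40, adjusted p = 0.00295). Its MZspg signals at 30% were under 24.6, it met the threshold through MZspg at 60% alone, and the stage change ranged from 1.29 to 3.32 over the other settings and left-out arrays. The other heavy chain gene, slc3a2b, went from 101 and 210 to 430 and 306 in WT (1.26, adjusted p = 0.0605) and from 184 and 106 to 423 and 477 in MZspg (1.62, adjusted p = 0.012).

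Between genotypes 0 of the 11 amino acid transporters were called at either stage, where 1.68% of all tested probe sets were at 30% and 4.52% at 60% epiboly. At 60% epiboly their median difference was 0.77 (log2), with 6 of 11 members higher and 2 lower in MZspg without overlap of the arrays (28.7% and 23.1% of all tested probe sets). Highest after slc7a8a stood slc7a3a (1.45, adjusted p = 0.0922), whose arrays are given above. The lower ones were slc38a7 (273 and 210 in WT, 136 and 66.7 in MZspg, -1.25, adjusted p = 0.0768) and the branched-chain amino acid transporter slc43a1a (637 and 561 in WT, 419 and 217 in MZspg, -0.96, adjusted p = 0.134). With the spike-in arrays as a term, slc7a8a (limma adjusted p = 0.0433) and slc38a7 (0.0404) passed at this stage. The term left both differences unchanged, and both genes missed the threshold in most settings run. A dimmer probe set of slc38a7 had a genotype difference of -0.46 there without that term (limma adjusted p = 0.562). The fall of slc38a7 from 30% to 60% epiboly was called in MZspg (-1.68, adjusted p = 0.00655) and not in WT (-0.86, adjusted p = 0.133).

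**Figure D4:**
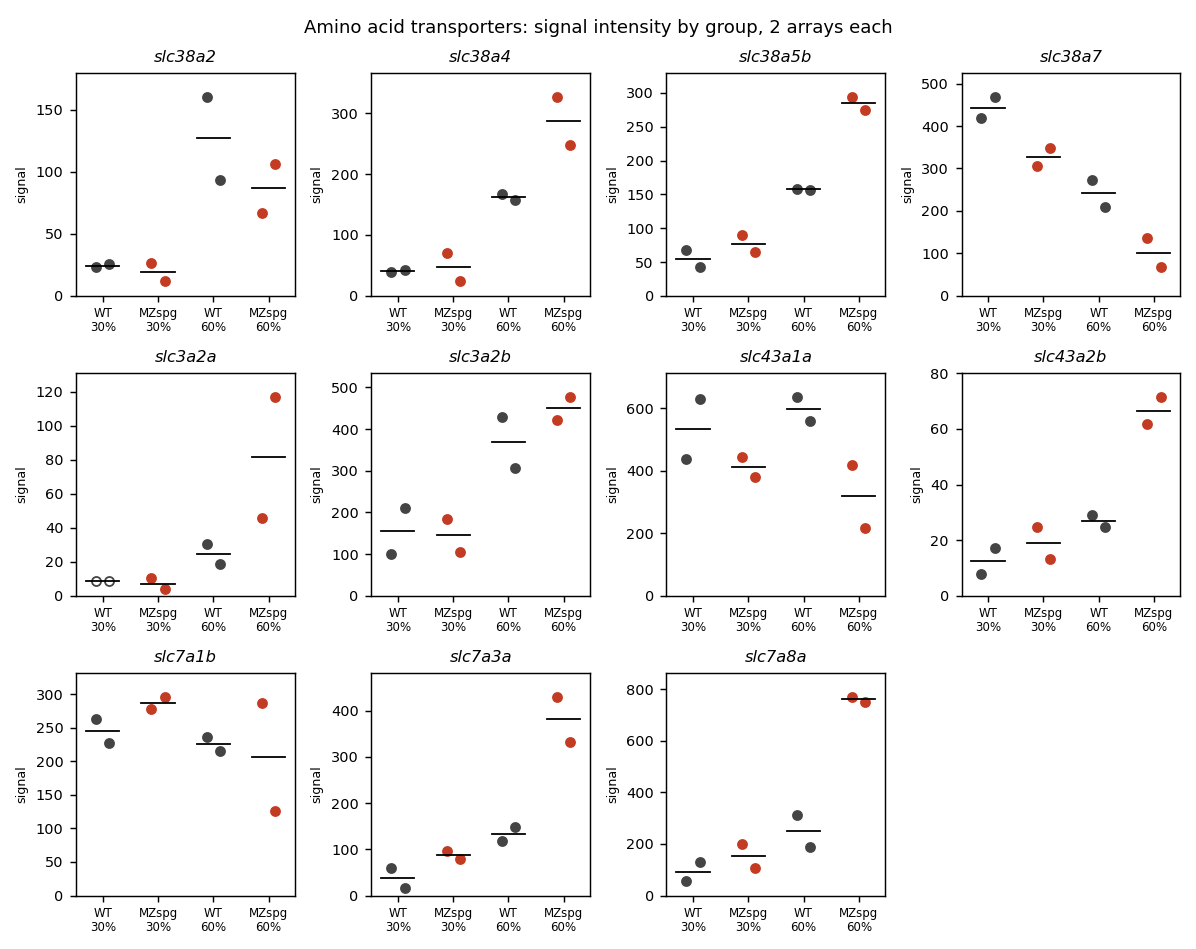
Signal intensity (linear axis from 0) of the 11 amino acid transporter transcripts on each array, by genotype and stage. Grey points are WT, red points MZspg, open points empty cells at the filled value, and bars means of 2 arrays. The 60% arrays of slc38a2, slc38a4, slc38a5b and slc7a3a lie above all 30% arrays, those of slc38a7 lie below, and slc7a1b and slc43a1a show no call.

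Over all classes, 14 members changed from 30% to 60% epiboly in WT, 6 rising and 8 falling. These are 21.5% of the 65, against 13.7% of all tested probe sets (9.23% against 5.6% higher, 12.3% against 8.14% lower). Besides the 4 amino acid transporters, the sodium-phosphate transporters slc34a2b (20.8 and 19.2 to 80.3 and 71.6, 1.55, adjusted p = 0.0171) and slc20a1b (228 and 209 to 615 and 446, 1.23, adjusted p = 0.0375) rose. Only 60% arrays of slc34a2b reached the signal threshold. The largest fall was that of the mitochondrial ATP-magnesium and phosphate carrier slc25a25a, from 251 and 164 to 60.9 and 42.98 (-1.81, SE 0.423, adjusted p = 0.0213). The lactate exporter slc16a3b fell from 1164 and 1362 to 383 and 387 (-1.69, SE 0.367, adjusted p = 0.017). The remaining falls were those of slc35e1 (-1.59), slc15a4 (-1.48), the fatty acid transport protein slc27a6 (-1.37), the zinc transporter slc39a9 (-1.25), the prestin gene slc26a5 (-1.18) and the mitochondrial citrate carrier slc25a1a (-1.04). A dimmer probe set of slc39a9 was not called (-0.62, limma adjusted p = 0.257). The signal threshold was met by slc15a4 through WT at 30% epiboly alone, and by slc26a5 through 30% arrays alone. The 30% and 60% arrays of WT did not overlap in 45 members (69.2%, with 63% of all tested probe sets), 20 higher and 25 lower at 60% (28.4% and 34.5% of all). With every array centred on its median, 9 rose and 7 fell in place of 6 and 8. None of the 14 calls held in all 8 fits that left an array out. Without either WT array of 30% epiboly, or without WT replicate 1 of 60% epiboly, 0 members were called, and 1 was without WT replicate 2 of 60% epiboly. All 14 kept their direction in each of these fits and within the arrays of low spike-in signal.

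In MZspg 30 members changed with stage, 17 rising and 13 falling, or 46.2% of the 65 against 32.6% of all tested probe sets (26.2% against 13.8% higher, 20% against 18.8% lower). All 6 members that rose in WT rose here too, as did 11 others. The zinc importer slc39a5 went from 30.4 and 5.58 to 175 and 186 (2.98, SE 0.522, adjusted p = 0.00239), while its WT signals went from 5.39 and 18.1 to 77.6 and 35.3 (1.65, adjusted p = 0.0563). Its rise was 2.26 without MZspg replicate 2 of 30% epiboly and 3.70 without replicate 1. Only 60% arrays of slc39a5 reached the signal threshold. The rise of slc27a2a, whose signals at 30% were under 24.6, was 2.86 (SE 0.367, adjusted p = 0.00076), and slc4a2a rose by 2.04 (log2, adjusted p = 0.00208). Both met the signal threshold through MZspg at 60% epiboly alone. The mitochondrial folate and flavin carrier slc25a32a went from 93.9 and 37.9 to 201 and 215 (1.64, adjusted p = 0.0119). The arrays of the stages did not overlap in 48 members in MZspg (73.8%, with 67.6% of all), 25 higher and 23 lower at 60% (29.9% and 37.7% of all).

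The falls in MZspg were led by slc16a3b, from 1339 and 1765 to 494 and 201 (-2.25, SE 0.367, adjusted p = 0.00189). The branched-chain amino acid carrier of mitochondria slc25a44b had values of 49.8 and 105 at 30% and none on either array at 60%. That is at least 2.94-fold lower if the empty cells lay under 24.6 (-2.24 with the filled value, limma adjusted p = 0.00323). In WT slc25a44b read 64.3 and 59.3, then 45.03 and 22.3 (-0.78, adjusted p = 0.225). Its genotype difference at 60% was -1.25 with the filled value (limma adjusted p = 0.111, not called). As 1 WT signal there was under 24.6, no least size can be given for that difference. The near relative of slc25a44b, slc25a44a, was not called in either genotype. Also lower were slc2a8 (-2.15, adjusted p = 0.0101), slc46a1 (-2.05, adjusted p = 0.00381), slc38a7, the vesicular nucleotide transporter slc17a9b (-1.59), slc35h1 (-1.39), slc49a4 (-1.27), slc25a25a (-1.21) and slc35e1 (-1.18). Only 30% arrays of slc46a1 reached the signal threshold. Of the 30 calls 10 held whichever array was left out: those of slc39a5, slc27a2a, slc38a4, slc3a2a, slc7a8a, slc4a2a and slc38a5b among the rises, and of slc16a3b, slc25a44b and slc46a1 among the falls. The count was 11 without MZspg replicate 2 of 30% epiboly and 14 without MZspg replicate 2 of 60% epiboly. All 30 kept their direction in each fit and within the arrays of low spike-in signal.

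The stage changes of the 2 genotypes had the same sign in 53 of 65 members. Both were called as rises in 6 and as falls in 5, and 0 were called in opposite directions. In 3 members, slc15a4, slc26a5 and slc39a9, the fall was called in WT and not in MZspg, and in 19 members a change was called in MZspg and not in WT. Since no member passed the interaction test, these calls do not show that the genotypes differed. A dimmer probe set of slc39a9 had stage changes of -0.62 in WT and 0.87 in MZspg, neither called, so its probe sets disagree. Of all tested probe sets 13.7% were called with stage in WT and 32.6% in MZspg. The counts by sign and by joint call have no share over all probe sets beside them. Markers of the yolk syncytial layer rose with stage as well, 2 of 12 in WT and 9 of 12 in MZspg, with 1 falling in each, and markers of the enveloping layer rose in 3 and 6 of 11. The summed yolk syncytial signal was 6486 to 9047 in WT and 6703 to 9059 in MZspg at 30% epiboly, where up to 3 of the 12 markers were empty on an array. Their part in the transporter changes was not tested.

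**Figure D5:**
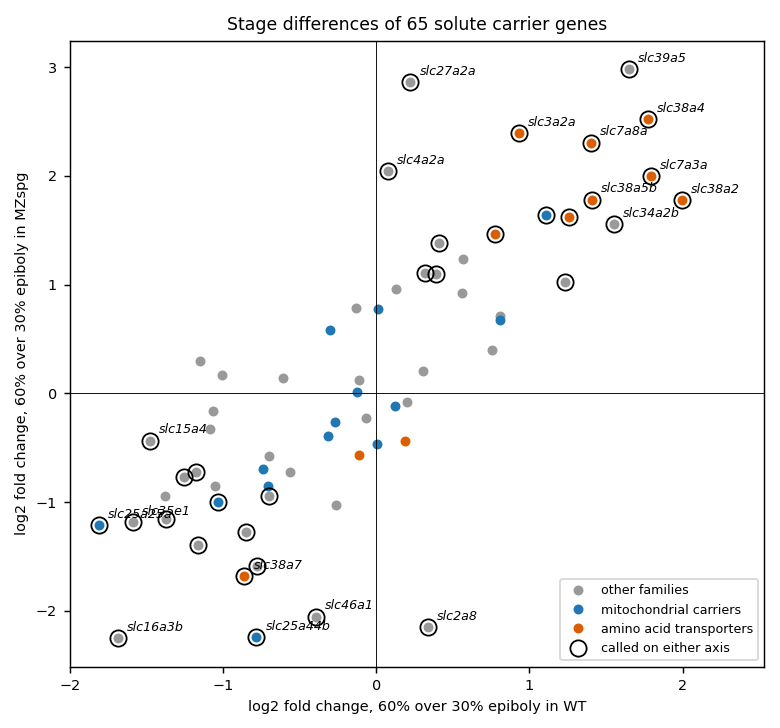
Log2 fold change of 60% over 30% epiboly in WT (horizontal axis) and in MZspg (vertical axis) for the 65 members, each from 2 arrays per group, with rings around members called in either genotype. Most points lie along the diagonal, with amino acid transporters (orange) mainly at the upper right, and slc27a2a, slc4a2a and slc2a8 lie away from it.

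None of the 14 mitochondrial carriers was called between genotypes, where 1.68% of all tested probe sets were at 30% and 4.52% at 60% epiboly. Their median genotype difference was 0.18 at 30% and 0.20 at 60% epiboly. With stage 2 of 14 fell and 0 rose in WT, and 3 fell and 1 rose in MZspg, where 13.7% and 32.6% of all tested probe sets were called. The class holds slc25a55a and slc25a44b, described above. The phosphate carrier slc25a3b, the brightest member, stayed between 1530 and 2171 on all arrays, with log2 differences between -0.14 and 0.12 in the 4 comparisons. The citrate carrier slc25a1a fell in both genotypes, from 617 and 580 to 252 and 327 in WT and from 661 and 682 to 362 and 304 in MZspg. The pyrimidine nucleotide carrier slc25a33 was lower in MZspg on every array of its stage, at 581 and 592 in WT and 331 and 508 in MZspg at 30%, and at 661 and 521 against 333 and 261 at 60% (-0.97, adjusted p = 0.096).

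None of the 8 zinc transporters was called between genotypes, where 1.68% of all tested probe sets were at 30% and 4.52% at 60% epiboly. Between stages slc39a9 fell in WT on its brightest probe set, and slc39a5 and slc30a6 rose in MZspg. The largest genotype difference among them was that of slc39a5 at 60% epiboly (1.61, SE 0.522, adjusted p = 0.1), where both MZspg arrays lay above both WT arrays, and at 30% that of slc39a7 (0.51, adjusted p = 0.674). The copper importer slc31a1 read 405 and 369 in WT and 566 and 901 in MZspg at 60% epiboly (0.87, adjusted p = 0.129), and rose with stage in MZspg (1.10, adjusted p = 0.0201). On a dimmer probe set of slc31a1 the stage change in MZspg was 0.54 (limma adjusted p = 0.472). Among sugar-phosphate and nucleotide-sugar transporters slc35f6 stood highest at 60% (249 and 146 in WT, 431 and 452 in MZspg, 1.17, adjusted p = 0.0679). In the class of bicarbonate, chloride and proton exchangers, set by family number, slc12a7b, slc26a5 and the remaining members apart from slc4a2a were not called between genotypes.

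In 8 members a further probe set was tested, and the probe sets did not always run the same way. Signs were opposite in 5 of the 8 for the genotype difference at 60% epiboly, in 1 at 30%, in 3 for the stage change in WT and in 4 in MZspg. For slc25a39, slc39a7 and slc35f6 the dimmer probe set fell with stage in MZspg (-1.91, -2.31 and -1.83, adjusted p = 0.0104, 0.00755 and 0.00611) while the brightest one had 0.67, 0.20 and 0.14, none called. For slc25a11 the dimmer probe set also fell in MZspg (-2.75, limma adjusted p = 0.00542), where the brightest one had -0.40, not called. For slc35f6 the genotype difference at 60% was -0.18 on the dimmer probe set. Another 5 probe sets, which list slc3a2b among several genes, were not used for it.

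Transporters outside the slc symbols were examined by symbol for comparison: ABC transporters, subunits of the vacuolar proton pump, P-type ion pumps and carriers under other symbols, 37 tested genes in all. Of these 1 rose and 1 fell between genotypes at each stage, the sodium pump subunits atp1a1b (2.09 and 2.17) and atp1b1a (-3.37 and -2.62). Of all tested probe sets 1.68% were called between genotypes at 30% and 4.52% at 60% epiboly. With stage 3 of the 37 rose and 3 fell in WT, and 6 rose and 9 fell in MZspg, beside 13.7% and 32.6% of all tested probe sets called. The 11 subunits of the vacuolar proton pump all had positive genotype differences at 60% epiboly, from 0.18 to 1.45 with a median of 0.77, and 0 were called. At 30% epiboly 7 of the 11 were positive, with a median of 0.14. The organic anion transporter slco1d1, a solute carrier by sequence whose symbol falls outside the rule, rose with stage in WT (2.01, adjusted p = 0.017) and in MZspg (2.29, adjusted p = 0.004).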

How the data were processed

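For each of 8 arrays the authors deposited linear intensities of 12477 probe sets. The submitters' processing notes name MAS5, and the design text names Genedata Expressionist Analyst as the tool that compared genotypes. The filled cells of all arrays had the same lowest, middle and highest values, and 17.3% of cells were empty. The step behind either is not given in the sources used here. Intensities were analysed as log2(value + 9). A fold change on this scale understates that of dim genes. The 30 control probe sets were left out, and 7375 with a signal of 41 or more on at least 2 arrays were tested. Empty cells (1.22% of those tested, 5 among the members) took the value 8.35, the 10th percentile over all cells. Where a group was empty, its bound was 24.6.

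limma 3.58.1 in R 4.3.3 fitted 1 mean per group over all arrays (eBayes, trend on; degrees of freedom 4 residual, 7.67 prior). P-values were two-sided and adjusted by Benjamini-Hochberg over all tested probe sets, and 0.05 was the threshold. The fit was tested on simulated data. The number of arrays limits the precision, and the labels do not say how the biological duplicates were separated.

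Named members were all those called between genotypes, up to 10 per direction called with stage, the 5 highest and 5 lowest genotype differences, the 5 brightest, those at the signal threshold, the largest genotype difference of each class of 5 or more, and members whose probe sets disagreed where one was called. Others described beside a class or set of arrays were picked with their values in view. The members and lists were chosen with earlier results of these data known. The 65 symbols all matched the current gene table. Alternatives changed the pseudocount, filter, empty cells, centring, batch and replicate terms, trend, probe set rule and arrays used.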

Additional observations from a re-analysis of the deposited data

How the results depend on the processing

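Refitted were the genotype calls, the 5 highest and 5 lowest genotype differences, up to 10 stage calls per direction and the largest genotype difference of each class of 5 or more, each in its own comparison, and none of these changed sign under the alternatives run. The remaining named values were not refitted one by one. The number of called members did move. At 30% epiboly the 1 genotype call became 0 with no filter, with a stricter filter of 100, with empty cells left missing or with values on all 8 arrays, 2 with arrays centred on medians, 4 with a term for the spike-in batch, 3 with the mean over probe sets of a gene, and 0 to 2 with 1 array left out. At 60% epiboly the 4 genotype calls became 7 with a pseudocount of 41, 2 with the stricter filter, without both arrays of high spike-in signal or with the arrays of that stage only, and 2 to 8 with 1 array left out. The 14 stage calls in WT became 0 with no filter (1.7% of all probe sets were then called), 1 without both high spike-in arrays and 0 to 16 with 1 array left out. The 30 stage calls in MZspg became 10 without both high spike-in arrays, 18 with MZspg arrays only and 11 to 28 with 1 array left out. The interaction gave 0 to 1. Fewer arrays or more probe sets tested account for part of this by construction. Under the stricter filter slc14a2 and slc27a2a were no longer among the tested probe sets, nor was slc14a2 with values on all 8 arrays. Their calls were thus not made there, as opposed to failing. Otherwise the cause was not tested. With a pseudocount of 41 the 1 call at 30% epiboly was slc25a55a, and with the arrays of that stage only it was slc22a31. The call of slc14a2 failed in both settings. With the replicate block the genotype calls were 2 at 30% and 4 at 60%, and the stage calls 11 in WT and 28 in MZspg. With a term for the spike-in batch, only 9 of the 14 stage calls in WT and 22 of the 30 in MZspg still passed. With that term slc22a31 was added in WT and slc16a9b in MZspg. Deviations of arrays with equal replicate numbers correlated at -0.333 to 0.078 between groups. Spike-in means did go with the number within each stage. At 30% epiboly they were 123 (WT) and 138 (MZspg) on replicate 1, and 78.8 and 79.9 on replicate 2. At 60% they were 108 and 190 on replicate 1, and 592 and 736 on replicate 2. Whether equal numbers share a step of processing cannot be told from these values. Centring moved the median of all tested probe sets by less than 0.1 (log2) in each comparison.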
